A study of Mus musculus with 24 samples.

Results

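The genes described here encode 10 transcription factors of the AP-1 group and close partners: the Fos proteins (Fos, Fosb, Fosl1, Fosl2), the Jun proteins (Jun, Junb, Jund), Atf3, Batf3 and the small Maf protein Maff. They were taken by symbol from the 25229 genes of the count table, all 10 were found, and 9 passed the filter on low counts, Batf3 being the exception. Most of them were lower after either drug than in control cells. AU-15330 alone lowered Fosl1 from a mean of 10.2 CPM (scaled read counts) to 0.440 CPM, lowered Maff 4.41-fold, Jund 2.61-fold and Jun 2.54-fold and raised Junb 1.41-fold. Atf3 stood apart: cisplatin alone lowered it 3.24-fold, and cells given both drugs held 2.30-fold more Atf3 mRNA than cells given cisplatin.

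AP-1 factors carry a basic region that contacts DNA and a leucine zipper through which they pair. Fos proteins must pair with a partner, usually a Jun protein, whereas Jun proteins also pair with each other. Fos, Fosb, Jun, Junb and Atf3 are immediate-early genes, whose transcription rises within minutes of growth factor or stress signals through MAP kinases, and AP-1 sites are frequent in enhancers opened by the SWI/SNF remodeling complex and in enhancers of senescent cells. Atf3 is a stress-induced factor that often represses, Batf3 pairs with Jun proteins and is best known in dendritic cells, and Maff lacks a domain for activation and acts through its partners.

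The cells were ID8, a mouse line derived from ovarian surface epithelium and used as a model of ovarian cancer, in the Trp53-/- form (P53 KO in the labels) in all groups. They were cultured for 6 days with DMSO (the vehicle), with 2.5 μM AU-15330, with 750 nM cisplatin, or with both, and each of the 4 groups held 6 replicates. AU-15330 is a PROTAC that directs SMARCA4 and SMARCA2, the ATPases of SWI/SNF, to degradation. Cisplatin is a platinum drug that crosslinks DNA and was used to make the cells senescent, and the study's text gives another cisplatin concentration for these cells than the labels do. All libraries come from 1 cell line without a Trp53 wild-type arm, the labels do not say that replicates came from separate cultures, so p-values may measure technical spread, and bulk RNA cannot tell less RNA per cell from fewer cells that hold it.

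The 24 libraries held between 17592588 and 25260009 counted reads, and 3 counts corresponded to 0.120 to 0.186 CPM (counts scaled to the library size with edgeR's TMM factors), a floor that covers counting error only. All 7 markers of epithelium and ovarian surface epithelium (Krt7, Krt8, Krt18, Krt19, Wt1, Msln and Upk3b) were detected in DMSO-treated cells, but their summed level was 3512 to 5308 CPM with DMSO, 4174 to 4851 CPM with cisplatin, 1018 to 1150 CPM with AU-15330 and 1222 to 1403 CPM with both. Of the 7, all 7 were lower with AU-15330, where 37.2% of all tested genes were called lower and 73.4% in either direction, and their part in the values below was not tested. Among 8 markers of leukocytes, endothelium and fibroblasts, the sum was 190 to 626 CPM with DMSO, 59.7 to 105 CPM with AU-15330, 171 to 315 CPM with cisplatin and 128 to 215 CPM with both, and nearly all of it was Col1a1. Adgre1 was at 0 with DMSO and with cisplatin, Cd3e was at 0 with AU-15330, and Cd3e, Adgre1 and Cdh5 had at most 3 counts in any library. The mRNA of the degrader's targets does not check the labels, because AU-15330 acts on protein: Smarca4 averaged 245 CPM with DMSO and 387 CPM with AU-15330, and Smarca2 averaged 439 and 284 CPM.

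To show what these genes carry just upstream of their starts, promoter windows of RefSeq (GRCm38.p6, from 250 bases before to 50 bases after a start) were searched on both strands. They were available for 9 of the 10 genes, in 11 windows, among 32851 windows of all genes. The 140 bases before the start are printed for 5 genes whose windows hold a cyclic AMP or AP-1 type element, written 5′ to 3′ on the strand of the gene, with the matched letters in capitals. The elements are TGACATCA in Jun, TTACGTCA in Atf3, TGACGTCA in Maff, and the shorter TGACG in Fos and Junb.
Jun, chr4:95052223-95052362, minus strand: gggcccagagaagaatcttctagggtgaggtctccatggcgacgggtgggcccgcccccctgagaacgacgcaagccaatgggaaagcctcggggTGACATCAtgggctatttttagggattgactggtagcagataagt
Atf3, chr1:191183334-191183473, minus strand: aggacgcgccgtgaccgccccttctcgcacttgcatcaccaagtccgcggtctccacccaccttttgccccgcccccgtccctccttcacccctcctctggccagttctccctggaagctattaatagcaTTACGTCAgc
Maff, chr15:79347380-79347519, plus strand: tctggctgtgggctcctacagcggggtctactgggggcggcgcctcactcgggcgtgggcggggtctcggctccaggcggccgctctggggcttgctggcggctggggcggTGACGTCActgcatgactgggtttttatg
Fos, chr12:85473750-85473889, plus strand: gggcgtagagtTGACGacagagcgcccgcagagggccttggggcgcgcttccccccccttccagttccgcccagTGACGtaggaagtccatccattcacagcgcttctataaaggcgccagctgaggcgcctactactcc
Junb, chr8:84978749-84978888, minus strand: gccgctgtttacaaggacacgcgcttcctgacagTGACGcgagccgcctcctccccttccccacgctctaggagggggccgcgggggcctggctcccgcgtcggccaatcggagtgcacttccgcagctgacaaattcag

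TGACGTCA, the cyclic AMP response element, was in 1.79% of all windows and in 1 of these genes, Maff, starting 29 bases before the start. TGACATCA was in 3.62% of all windows and in 2 of these genes, Jun and another window of Maff, in both 45 bases before the start. TTACGTCA was in 0.499% of all windows and began 10 bases before the start of Atf3. TGACG, which is also part of TGACGTCA and, read on the other strand, of TTACGTCA, was in 20.8% of all windows and in 6 of the 11 windows here, those of Fos, Fosb, Junb, Atf3 and Maff. The canonical AP-1 element TGACTCA was in 5.20% of all windows and in 0 of the 11. These matches describe letters only, since binding was not measured.

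Levels per kilobase of exon (CPM divided by the exon length of the gene) put Jund first in all 4 groups. In DMSO-treated cells Jund averaged 823 CPM per kb, followed by Junb at 167, Jun at 160 and Fos at 146, whose ranges over the replicates overlapped. Atf3 at 50.6, Fosl2 at 40.0, Fosb at 36.7 and Maff at 22.8 CPM per kb came next, and each overlapped with its neighbour in this order. Fosl1 averaged 5.02 CPM per kb, below the range of Maff, and Batf3 had 0 counts in all 6 libraries. With both drugs the order was Jund, Junb, Jun, Fos, Atf3, Fosl2, Maff, Fosb, Fosl1 and Batf3, and among neighbours in this order Jun overlapped with Fos and Fos with Atf3, while Jun also overlapped with Atf3.

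**Figure D1:**
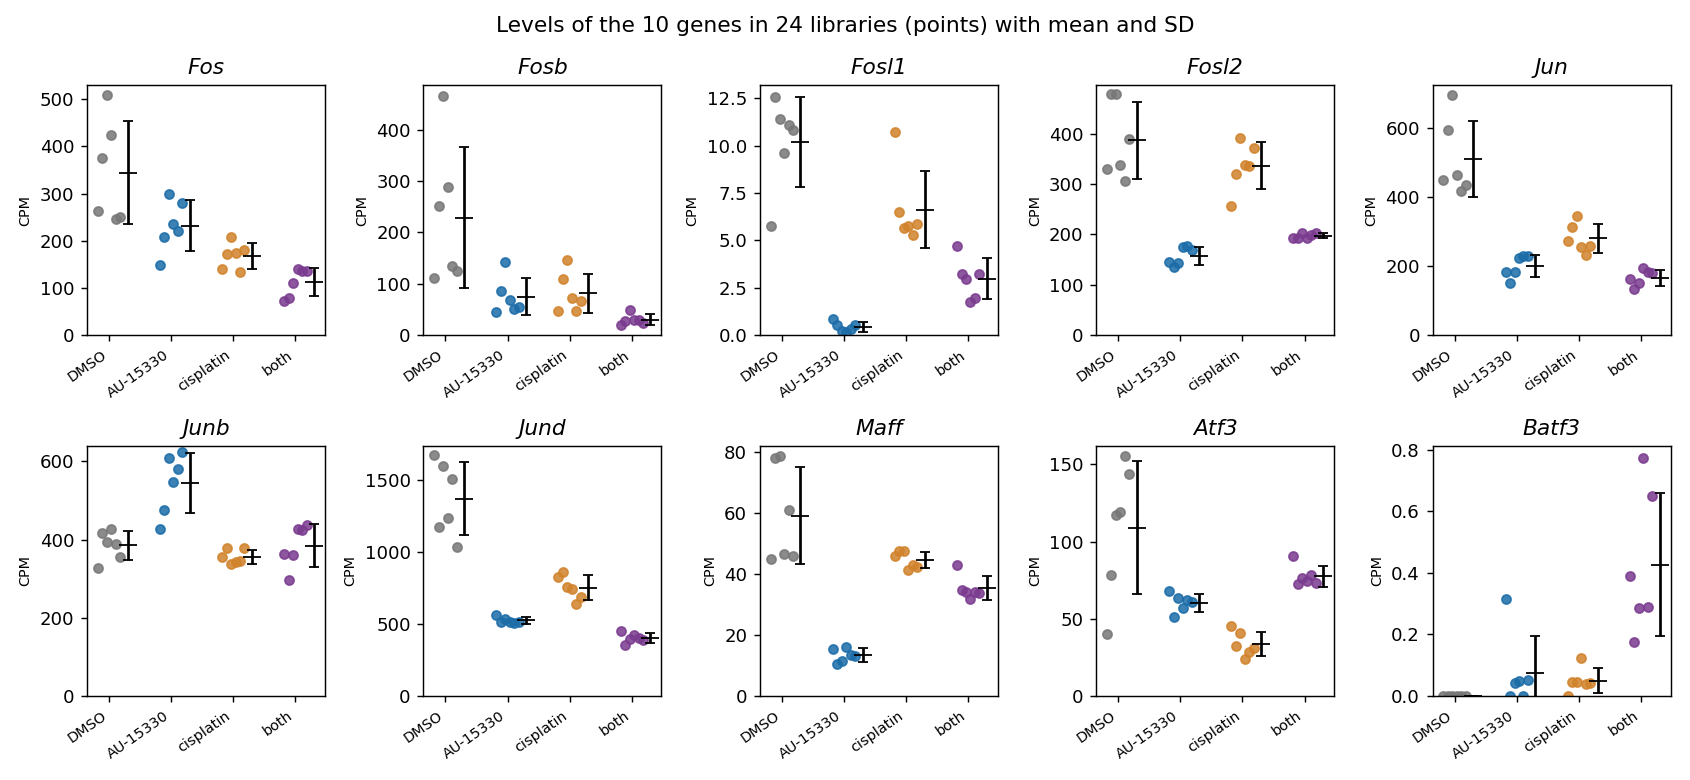
Level of each of the 10 genes in CPM (vertical axes, linear, each gene on its own scale) in the 4 groups; points are the 24 libraries in the order of their replicate numbers, and bars give the mean and SD (n = 6). Fosl1 fell to 0.191 to 0.855 CPM with AU-15330, Atf3 was lowest with cisplatin, and Batf3 had counts in all 6 libraries only with both drugs.

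The question asked of AU-15330 alone was how these factors change with the degrader in cells that were not given cisplatin. All 9 tested genes changed, 8 lower and 1 higher, in a comparison in which 73.4% of all tested genes were called (adjusted p under 0.05, Benjamini-Hochberg over the tested genes, edgeR's quasi-likelihood F test). Of all genes 36.2% were called higher and 37.2% lower, against 1 and 8 of these 9, and the median log2 fold change was −1.35 for the 9 genes and −0.0030 for all genes. The groups did not overlap for 6 of the 9 genes, against 49.9% of all genes.

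Fosl1, which encodes the Fos protein FRA-1, ran from 5.75 to 12.6 CPM with DMSO (mean 10.2) and from 0.191 to 0.855 CPM with AU-15330 (mean 0.440). The groups were far apart, and the AU-15330 libraries held only 4 to 19 counts each. The log2 fold change was −4.52 (SE 0.307, adjusted p = 6.44e-13), lower in 6 of 6 comparisons of libraries with the same replicate number (called pairs from here on, although the labels do not say that a number marks a shared origin). Exons of Ccdc85b, on the other strand, cover 57.2% of the exon bases of Fosl1, and whether counting used strand is not given in the sources used here. Ccdc85b averaged 31.2 CPM with DMSO and 22.4 CPM with AU-15330, and its part in the Fosl1 values was not tested.

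Fosl2 (FRA-2) ran from 307 to 480 CPM with DMSO (median 364) and from 135 to 177 CPM with AU-15330 (median 157). No replicates overlapped, and the log2 fold change was −1.30 (SE 0.109, adjusted p = 4.63e-11). Fos ran from 245 to 508 CPM with DMSO (median 319) and from 148 to 299 CPM with AU-15330 (median 228), groups that overlapped. Its log2 fold change was −0.57 (SE 0.194, adjusted p = 0.0103), in 5 of 6 pairs, and it was −0.33 (adjusted p = 0.0918, of a range of 0.00137 to 0.0918 over the alternatives) with replicates 4 to 6 only. Fosb ran from 112 to 465 CPM with DMSO (median 192) and from 45.8 to 143 CPM with AU-15330 (median 61.4). The groups overlapped, and the log2 fold change was −1.61 (SE 0.347, adjusted p = 0.000182).

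Among the Jun genes, Jund, the most abundant, ran from 1038 to 1674 CPM with DMSO (median 1373) and only from 507 to 564 CPM with AU-15330 (median 516). The log2 fold change was −1.39 (SE 0.0996, adjusted p = 2.17e-12), with no overlap. Jun ran from 418 to 696 CPM with DMSO (median 456) and from 152 to 230 CPM with AU-15330 (median 204), again without overlap (−1.35, SE 0.132, adjusted p = 9.12e-10). Junb moved the other way: it ran from 327 to 428 CPM with DMSO (median 391) and from 428 to 624 CPM with AU-15330 (median 565). The highest DMSO library lay just under the lowest AU-15330 library, and the log2 fold change was 0.50 (SE 0.0962, adjusted p = 4.95e-05), higher in 6 of 6 pairs. Gm11175 on the other strand covers 52.6% of the exon bases of Jund, while Prdx2 covers 7.52% of those of Junb and Junos 7.28% of those of Jun.

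Maff ran from 44.8 to 78.7 CPM with DMSO (median 53.8) and from 10.6 to 16.2 CPM with AU-15330 (median 13.3). This was the second largest decrease, with a log2 fold change of −2.14 (SE 0.138, adjusted p = 2.08e-13). Atf3 ran from 40.3 to 155 CPM with DMSO (median 118) and from 50.8 to 68.0 CPM with AU-15330 (median 61.5). The DMSO replicate 1 library was below all AU-15330 libraries and the other DMSO libraries above them. The log2 fold change of −0.85 (SE 0.200, adjusted p = 0.000459) was −1.08 without replicate 1 and −0.38 with replicates 1 to 3 only, where it was not called (adjusted p = 0.252, of a range of 4.50e-08 to 0.252).

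**Figure D2:**
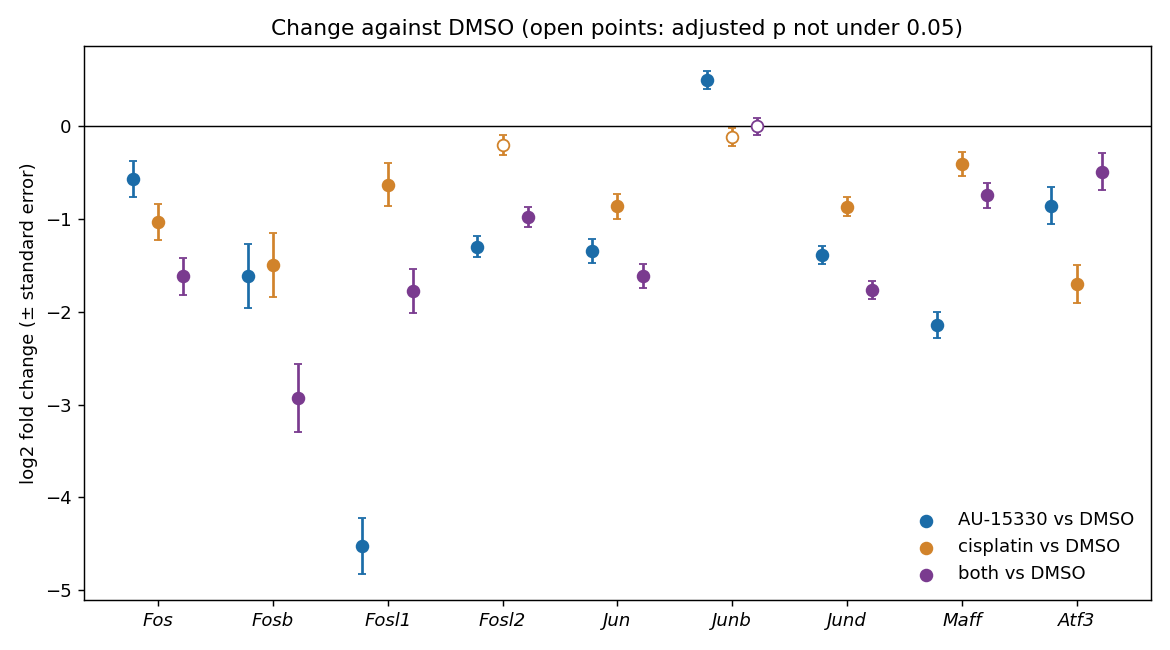
Log2 fold change against DMSO (vertical axis) with its standard error for the 9 tested genes in 3 comparisons that share the DMSO libraries; open points have an adjusted p not under 0.05. Junb is the only gene above the line with AU-15330, at 0.50, and Fosl1 with AU-15330 is the lowest point, at −4.52.

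Cisplatin alone, used in the study to make the cells senescent, a state not examined here, lowered 7 of the 9 genes and raised 0. Of all tested genes 25.7% were called lower, 26.0% higher and 51.7% in either direction. The median log2 fold change was −0.86 for the 9 genes and −0.0041 for all genes. Fosl2 (−0.20, SE 0.107, adjusted p = 0.112) and Junb (−0.11, SE 0.0960, adjusted p = 0.336) were not called.

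Atf3 had the largest decrease with cisplatin, to between 24.2 and 45.1 CPM (median 31.8). The DMSO replicate 1 library, at 40.3 CPM, fell within this range, and the other DMSO libraries were all above it. The log2 fold change was −1.70 (SE 0.205, adjusted p = 1.52e-07), in 5 of 6 pairs. It was −1.98 without replicate 1, −1.001 with replicates 1 to 3 only (adjusted p = 0.0145) and −2.34 with replicates 4 to 6 only. Fosb fell by 1.49 (SE 0.346, adjusted p = 0.000780) in 6 of 6 pairs, to between 47.5 and 146 CPM (median 69.5), a range whose upper end overlapped with DMSO. With replicates 1 to 3 only, Fosb was at −1.47 with an adjusted p of 0.0510 (range 1.30e-08 to 0.0510).

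Fos ran from 134 to 208 CPM with cisplatin (median 174), below every DMSO library, and fell by 1.03 on the log2 scale (SE 0.195, adjusted p = 8.74e-05). Jun ran from 232 to 345 CPM (median 265) and Jund from 637 to 865 CPM (median 749). Both lay below their DMSO ranges and their log2 fold changes were alike, at −0.86 for Jun (SE 0.130, adjusted p = 4.44e-06) and −0.87 for Jund (SE 0.0985, adjusted p = 5.48e-08).

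Calls for Fosl1 and Maff were less firm. Fosl1 ran from 5.31 to 10.7 CPM with cisplatin (median 5.80), and replicate 1, which was the lowest DMSO library, was the highest cisplatin library, at 10.7 CPM against at most 6.50 CPM in the others. Its log2 fold change was −0.63 (SE 0.228, adjusted p = 0.0232), −0.95 without replicate 1 (adjusted p = 3.66e-05), and it was not called without replicate 2, 3, 5 or 6 (−0.58 to −0.52, adjusted p 0.0833 to 0.108, of a range of 3.66e-05 to 0.417). Maff ran from 41.2 to 47.5 CPM (median 44.4), with 3 of 6 libraries below the lowest DMSO library (44.8 CPM) and the others in the lower part of the DMSO range. Its log2 fold change of −0.41 (SE 0.129, adjusted p = 0.0100) was −0.30 and not called without replicate 3 (adjusted p = 0.0793, the highest of a range from 0.00328).

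The addition of AU-15330 to cisplatin, which asks what the degrader changes in cisplatin-treated cells, lowered 7 of the 9 genes and raised 1, Atf3. In this comparison 68.1% of all tested genes were called, 35.4% higher and 32.7% lower, and the median log2 fold change was −0.75 for the 9 genes and 0.039 for all genes. The groups did not overlap for 5 of the 9, against 50.2% of all genes.

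Atf3 ran from 24.2 to 45.1 CPM with cisplatin and from 72.5 to 90.7 CPM with both drugs (median 75.5). Every library with both drugs was above every cisplatin library, and the log2 fold change was 1.20 (SE 0.203, adjusted p = 9.79e-06), higher in 6 of 6 pairs. Replicate 1 was the highest of the libraries with both drugs, at 90.7 CPM against at most 78.0 CPM, and without it the value was 1.22. Over the alternatives the log2 fold change ran from 0.99 to 1.40.

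Fosl1 went from a median of 5.80 CPM with cisplatin to 1.73, 3.11 and 4.72 CPM (lowest, median, highest) with both drugs, without overlap. The log2 fold change was −1.15 (SE 0.242, adjusted p = 0.000164). Jund fell to between 357 and 454 CPM (median 398; −0.90, SE 0.0987, adjusted p = 9.66e-09), Jun to between 132 and 194 CPM (median 170; −0.75, SE 0.130, adjusted p = 1.48e-05). Fosl2 fell to a narrow range of 192 to 203 CPM (median 197; −0.77, SE 0.107, adjusted p = 5.89e-07). For these 4 genes no library with both drugs reached the cisplatin range.

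Fosb ran from 19.8 to 49.8 CPM with both drugs (median 28.2), its lowest level of the 4 groups. It overlapped with cisplatin only through the highest library with both drugs, replicate 3, and its log2 fold change was −1.44 (SE 0.352, adjusted p = 0.000797). Fos ran from 72.2 to 140 CPM (median 123) and overlapped with cisplatin, with a log2 fold change of −0.58 (SE 0.195, adjusted p = 0.0102). This call was lost without replicate 2 (−0.49, adjusted p = 0.0536) and with replicates 4 to 6 only, where the value was −0.28 (adjusted p = 0.164, the highest of a range from 0.00118). Maff ran from 31.8 to 43.0 CPM (median 34.1), and replicate 1 was the only library with both drugs inside the cisplatin range. Its log2 fold change of −0.34 (SE 0.130, adjusted p = 0.0246) was lost with scaling to total counts, without replicate 5 (−0.34, adjusted p = 0.0625) and with replicates 1 to 3 only (range 0.000469 to 0.142). Junb ran from 297 to 437 CPM (median 394) and was not called (0.11, SE 0.0960, adjusted p = 0.311), although it was called at 0.24 with replicates 4 to 6 only (adjusted p = 0.00862).

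Compared with AU-15330 alone, cells given both drugs had 3 of the 9 genes higher (Fosl1, Fosl2 and Maff) and 4 lower (Fos, Fosb, Junb and Jund), where 41.7% of all tested genes were called, 22.2% higher and 19.5% lower. Fosl1 was 6.73-fold higher with both drugs than with AU-15330 (log2 fold change 2.75, SE 0.322, adjusted p = 1.93e-07), and Maff 2.63-fold higher (1.40, SE 0.136, adjusted p = 1.04e-08), in both cases without overlap. Fosl2 was 0.32 higher (SE 0.107, adjusted p = 0.0173), a call that was lost without replicate 2 (0.29, adjusted p = 0.0503) and with either set of 3 replicates (range 0.000602 to 0.0873). Fos was 1.04 lower (SE 0.196, adjusted p = 0.000126), Fosb 1.32 lower (SE 0.351, adjusted p = 0.00390), Junb 0.50 lower (SE 0.0961, adjusted p = 0.000166) and Jund 0.38 lower (SE 0.0981, adjusted p = 0.00307), in 6 of 6 pairs each. With replicates 1 to 3 only, Fosb was at −1.55 and was not called (adjusted p = 0.0602, the highest of a range from 2.49e-07). Jun (−0.27, SE 0.130, adjusted p = 0.104) and Atf3 (0.36, SE 0.199, adjusted p = 0.151) were not called in the fit of all 24 libraries. The 6 Atf3 values with both drugs were nevertheless all above the 6 with AU-15330, as the groups did not overlap for 29.6% of all genes, and Atf3 was called when only these groups were fitted (adjusted p = 0.000517). Jun was called with replicates 4 to 6 only (−0.33, adjusted p = 0.000522).

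Against DMSO, the libraries with both drugs had 8 of the 9 genes lower and 0 higher, where 36.5% of all tested genes were called lower, 36.8% higher and 73.3% in either direction. The groups did not overlap for 7 of the 9, against 49.5% of all genes. Fosb was 7.63-fold, Fosl1 3.42-fold, Jund 3.40-fold, Fos 3.07-fold and Jun 3.06-fold lower, each without overlap. Fosl2 (1.96-fold) and Maff (1.68-fold) also lay below their DMSO ranges. Junb averaged 385 ± 54.8 CPM (SD, n = 6) with both drugs and 385 ± 38.1 CPM with DMSO, a log2 difference of −0.0015 (SE 0.0960, adjusted p = 0.990). Atf3 was at −0.49 (SE 0.199, adjusted p = 0.0289). That call was lost with scaling to total counts, in a fit of the 2 groups, without replicate 3, 4, 5 or 6 (−0.46 to −0.37, adjusted p 0.0777 to 0.138), and with replicates 1 to 3 only, where the value was −0.016 (range of adjusted p 8.55e-07 to 0.964). It was −0.77 without replicate 1 (adjusted p = 3.16e-05) and −0.94 with replicates 4 to 6 only.

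Whether the effect of AU-15330 differed between cells with and without cisplatin was tested as the interaction of both drugs, which was called for 7 of the 9 genes, against 33.7% of all tested genes. It was positive for 6 and negative for 1, against 17.9% and 15.8% of all genes. A positive value means that the log2 change by AU-15330 was higher with cisplatin than without it. Fosl1 had the largest, 3.38 (SE 0.397, adjusted p = 3.74e-07), its change by AU-15330 being −4.52 without and −1.15 with cisplatin. Atf3 had an interaction of 2.06 (SE 0.285, adjusted p = 4.59e-06), and its change by AU-15330 turned from −0.85 to 1.20. With replicates 1 to 3 only the interaction was 1.37 (adjusted p = 0.0365). Maff had one of 1.81 (SE 0.187, adjusted p = 5.04e-08), its change being −2.14 without and −0.34 with cisplatin. These 3 interactions were called in all 14 alternatives run for them and were positive in 6 of 6 replicate numbers.

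Jun (0.60, SE 0.183, adjusted p = 0.0135), Fosl2 (0.53, SE 0.151, adjusted p = 0.00872) and Jund (0.49, SE 0.138, adjusted p = 0.00825) had smaller positive interactions, and Junb a negative one (−0.39, SE 0.136, adjusted p = 0.0293). The call was lost for Fosl2 without replicate 2 (0.41, adjusted p = 0.0558) and with replicates 4 to 6 only (0.16, range of adjusted p 0.00550 to 0.241). Jund was not called without replicate 3 or 5 (0.42 and 0.40, adjusted p = 0.0622 and 0.0670, of a range of 0.00381 to 0.186). Junb was not called without replicate 3, 5 or 6 (−0.42 to −0.35, adjusted p 0.0597 to 0.0843, of a range of 0.0134 to 0.118). Replicates 1 to 3 alone gave no call for Jund, Junb or Jun, whose value there was 0.64 (adjusted p = 0.0685). Fos (−0.011, SE 0.274, adjusted p = 0.982) and Fosb (0.18, SE 0.485, adjusted p = 0.810) had no interaction past the threshold.

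**Figure D3:**
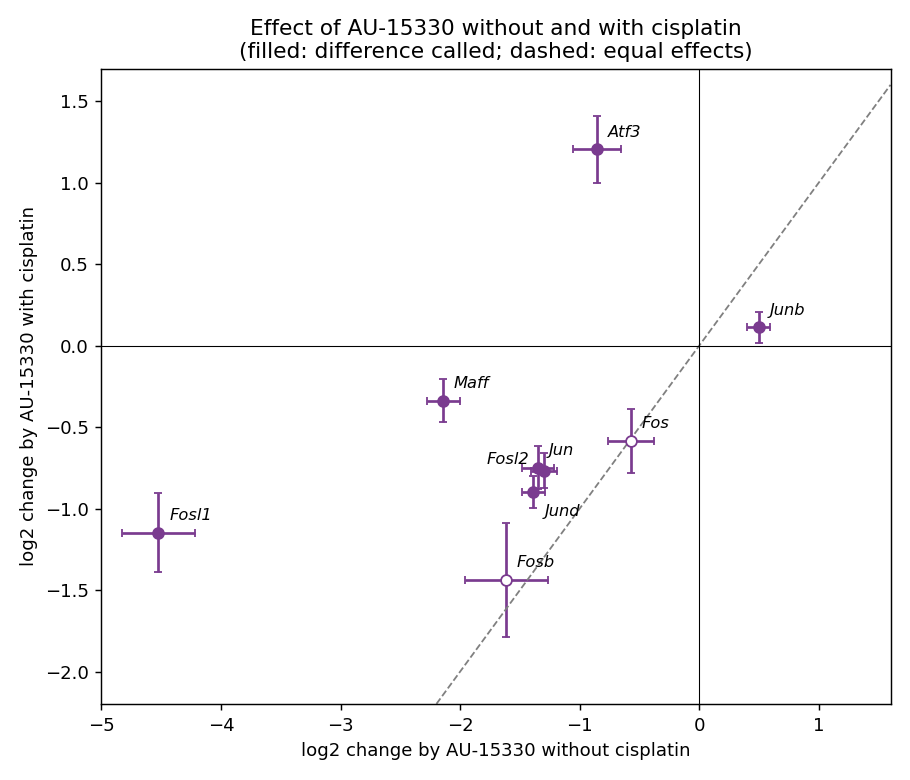
Log2 fold change by AU-15330 without cisplatin (horizontal axis) and with cisplatin (vertical axis), with standard errors, for the 9 tested genes; the dashed line marks equal effects, and filled points have an interaction with an adjusted p under 0.05. Fos and Fosb lie on the line within their errors, Fosl1, Maff and Atf3 lie farthest above it, and Atf3 alone has opposite signs on the 2 axes.

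Batf3 had too few counts for the filter and was examined by its counts. It had 0 counts in all 6 DMSO libraries, and 10 counts with AU-15330 and 7 with cisplatin over 6 libraries each. With both drugs it had 56 counts, with 9, 4, 6, 17, 6 and 14 in replicates 1 to 6. Pooled over the group this is 0.427 CPM (exact Poisson 95% interval 0.322 to 0.554, counting error only), and the 0 counts with DMSO gave an upper limit of 0.0308 CPM by the same interval. With both drugs it was 5.55-fold higher than with AU-15330, where replicate 1 held 7 of the 10 counts and lay above 3 of the libraries with both drugs, and 8.54-fold higher than with cisplatin, where no library reached the lowest library with both drugs. In an edgeR fit without the filter, in which 47.7% and 25.8% of 20428 genes were called, both drugs differed from cisplatin (adjusted p = 0.000609) and from AU-15330 (adjusted p = 0.00654), and DESeq2's Wald test gave 0.000673 and 0.00711. Against DMSO, AU-15330 alone was called (adjusted p = 0.0121 in edgeR and 0.0130 in DESeq2). Cisplatin alone was not (0.0505 and 0.0762). The interaction of both drugs was not called for Batf3, at −0.92 in edgeR (adjusted p = 0.465) and 0.031 in DESeq2 (adjusted p = 0.989). Even with both drugs Batf3 was the least abundant of the 10 genes.

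The makeup of each family shifted because its members did not move alike. Summed per kilobase of exon, the 3 Jun genes had 1150 ± 160 CPM per kb (SD, n = 6) with DMSO, 614 ± 34.0 with AU-15330, 694 ± 61.9 with cisplatin and 461 ± 42.8 with both. Of this sum Junb made up 14.8% ± 2.64 with DMSO (at most 17.3% in a library), 22.4% ± 1.98 with cisplatin, 38.4% ± 3.63 with AU-15330 (32.0% to 41.7%) and 36.1% ± 2.63 with both. Jund had the opposite course, from 71.2% ± 4.59 with DMSO to 51.4% ± 4.20 with AU-15330. The libraries with AU-15330 and those with DMSO did not overlap in either share.

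The 4 Fos genes summed to 228 ± 73.8 CPM per kb with DMSO, 127 ± 26.9 with AU-15330, 123 ± 20.4 with cisplatin and 74.4 ± 13.2 with both. Fos itself made up 64.3% ± 2.52 of it with DMSO and 77.3% ± 2.77 with AU-15330, without overlap, while Fosl2 made up 18.4% ± 3.91 with DMSO and 28.5% ± 3.04 with cisplatin. Fosl1 contributed 2.33% with DMSO and 0.194% with AU-15330. These are shares of mRNA, and protein was not analysed here.

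**Figure D4:**
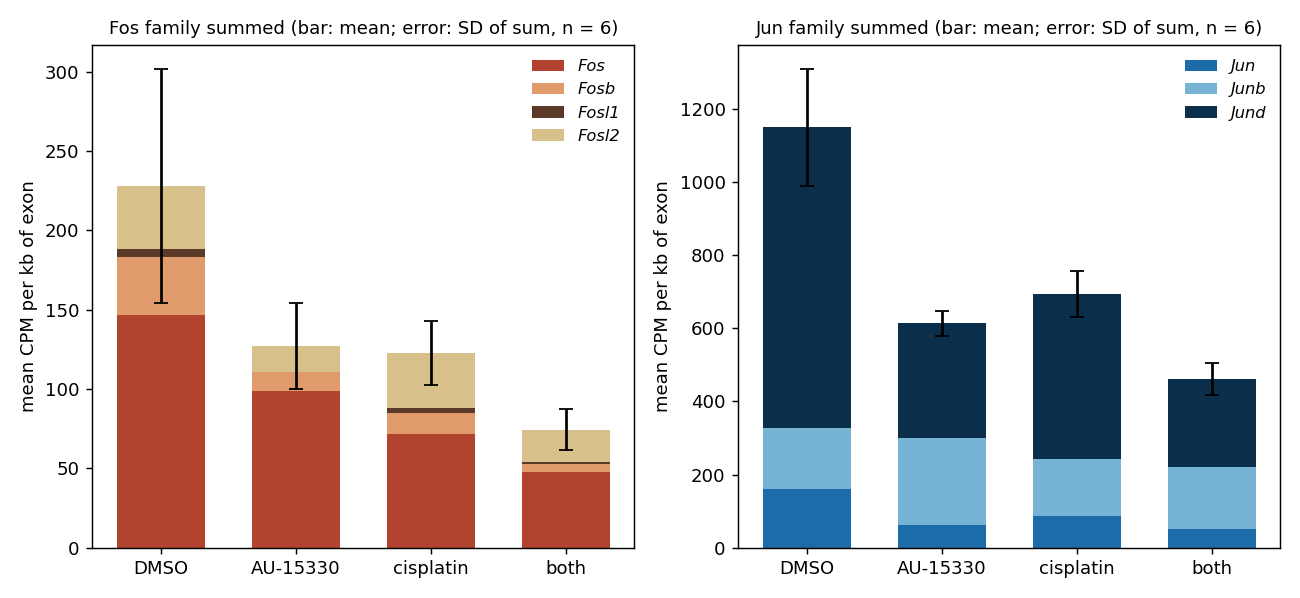
Stacked bars of the mean CPM per kb of exon of the 4 Fos genes (left) and the 3 Jun genes (right) in the 4 groups; error bars are the SD of the summed level (n = 6). The Jun sum fell from 1150 with DMSO to 461 CPM per kb with both drugs, and the part made up by Junb was widest with AU-15330, at 38.4%.

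Among the 9 tested genes, DMSO replicates differed most for Fosb, Atf3 and Fos, with a coefficient of variation of 59.7%, 39.3% and 31.7%, against 9.88% for Junb. In the other groups the order differed: Fosl1 had the highest with AU-15330 (56.9%) and with both drugs (36.0%), at low counts, Fosb the highest with cisplatin (47.4%), and Atf3 had 9.69% with AU-15330 and 8.67% with both drugs. Replicate 3 was the highest library for Fosb in 4 of 4 groups and for Fos in 3 of 4. For the 14 other immediate-early genes it was the highest in 24 of 56 groups. Replicate 1 was the highest in 3 of 4 groups for Fosl1, Jund and Atf3. Over the 10 genes replicate 1 was the highest in 11 and the lowest in 12 of 38 groups, and replicate 3 in 12 and 1. Across all 24 libraries, Fos and Fosb were correlated at r = 0.89, Jun and Jund at 0.93, and Fosl1 and Maff at 0.95 (Pearson, log2 CPM, all sharing the same libraries, scaling and treatment groups). Fos and Fosl1, by contrast, had r = 0.061, and Junb had r = −0.78 with Fosl1 and −0.73 with Maff.

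Of all tested genes, those with the pattern most like Fosl1 were Epha2 (r = 0.98) and Drg2 (0.97), and Epha2 was also the closest to Maff (0.97), followed by Slc7a6 (0.96). Epha2 encodes a receptor for ephrins. The closest to Jun were Arfgap3 (0.98) and Gtf2e2 (0.96), to Jund Eid1 and Mtfr1l (0.98 each), and to Fosl2 Hs6st1 (0.98) and Igf2bp2 (0.97). Fos was closest to Phf1 (0.92) and Zrsr1 (0.90), Fosb to Nudcd3 (0.92) and Alcam (0.90), and Atf3 to Erlin1 (0.92) and Angptl6 (0.92). Junb had the weakest best matches, Dnajc14 (0.88) and Zfp36 (0.87), the latter an immediate-early gene whose product destabilizes mRNA. These are descriptions over 24 libraries that share 4 treatments.

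The genes around AP-1 in its pathway are given as lists of textbook members. Upstream, of 12 tested MAP kinases and kinase kinases, 2 were higher and 6 lower with AU-15330, 1 higher and 4 lower with cisplatin, and 2 higher and 6 lower when AU-15330 was added to cisplatin. These are 8, 5 and 8 of 12 genes called in either direction, near or below the shares of all tested genes (73.4%, 51.7% and 68.1%). The larger changes were those of Map3k1 (log2 fold change −2.36 with AU-15330 and −2.23 when added to cisplatin) and Map3k5 (−2.18 and −1.65), which encode the stress kinase kinases MEKK1 and ASK1. Mapk3, which encodes ERK1, changed by −1.18 and −1.08. Mapk7 (ERK5) was higher by 0.22 with AU-15330, and Map2k2 (MEK2) by 0.31 when AU-15330 was added to cisplatin. With cisplatin alone Mapk8, which encodes the kinase JNK1, was higher by 0.22, and Map2k1 (MEK1) was lower by 0.49, Mapk3 by 0.41 and Map3k5 by 0.32.

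Of 8 tested MAP kinase phosphatases, which switch these kinases off and are themselves induced by MAP kinase signaling, 8 were lower with AU-15330, where the share of all genes called lower was 37.2%. Dusp4 ran from 29.1 to 73.5 CPM with DMSO (median 64.4) and from 5.39 to 10.1 CPM with AU-15330 (median 6.04), a log2 fold change of −3.18 (SE 0.177, adjusted p = 1.05e-14). Dusp5 (−2.36) and Dusp6 (−1.33) were next. With cisplatin 2 were higher, Dusp5 (0.40) and Dusp6 (0.39), and 1 was lower, Dusp7 (−0.36), where 51.7% of all genes were called. With the replicate number as a block, 3 were higher and 1 was lower. When AU-15330 was added to cisplatin 7 were lower, against 32.7% of all genes, led by Dusp4 (−2.11), Dusp5 (−1.51) and Dusp1 (−1.35). With both drugs 6 of the 8 were higher than with AU-15330 alone and 0 were lower, against 22.2% and 19.5% of all genes, and the interaction was positive for 6, against 17.9%.

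Of the 14 other immediate-early genes, 3 were higher and 10 lower with AU-15330, 1 higher and 8 lower with cisplatin, and 2 higher and 9 lower when AU-15330 was added to cisplatin. Of all genes 37.2%, 25.7% and 32.7% were called lower in these comparisons. Among those with a mean log2 CPM of at least 3, Ier5 (−2.66), Btg2 (−2.43) and Nr4a1 (−2.23) had the largest decreases with AU-15330. Zfp36 (0.66) and Srf (0.16), whose product drives many of these genes, were higher. Below that limit, Egr3 was at −2.81 and Egr2 at 0.90, the largest increase among the 14 genes. With cisplatin Egr3 (−1.58), Nr4a1 (−1.04), Btg2 (−0.60) and Egr1 (−0.57) were lower and Klf6 (0.38) higher. When AU-15330 was added to cisplatin, Ier5 (−2.27), Btg2 (−1.84) and Egr1 (−1.71) were lower and Srf (0.34) and Egr2 (0.57) higher. Egr1, a zinc finger factor, ran from 559 to 1033 CPM with DMSO and from 112 to 220 CPM with both drugs.

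Of 10 tested other bZIP partners, 2 were higher and 6 lower with AU-15330, 4 higher and 1 lower with cisplatin, and 1 higher and 5 lower when AU-15330 was added to cisplatin. These 8, 5 and 6 called genes of 10 are near the shares of all tested genes (73.4%, 51.7% and 68.1%). Maf, the large Maf protein c-Maf, changed by −1.50 with AU-15330 and by −1.64 when it was added to cisplatin. The small Maf gene Mafk changed by −0.87 and −0.80, and was higher by 0.46 with cisplatin, where Maff was lower. Creb5 was lower by 1.06 with AU-15330 and higher by 0.52 with cisplatin. Jdp2, whose product dimerizes with Jun, was higher by 0.31 with cisplatin and lower by 0.52 when AU-15330 was added to it, and Atf2, another Jun partner, was higher by 0.27 with AU-15330.

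Downstream, of 10 tested textbook AP-1 target genes, 2 were higher and 6 lower with AU-15330, 6 higher and 2 lower with cisplatin, and 3 higher and 3 lower when AU-15330 was added to cisplatin, where 73.4%, 51.7% and 68.1% of all genes were called. The matrix metalloproteinase genes had the largest decreases with AU-15330: Mmp10 had 90 to 361 counts per library with DMSO and 0 to 3 with AU-15330, and Mmp13 had 121 to 1629 and 1 to 7, so that the sizes of their log2 fold changes (−7.16 and −7.57) are uncertain. When AU-15330 was added to cisplatin, they were lower by 4.85 and 5.34. Ccnd1, which encodes cyclin D1, was lower by 1.81 with AU-15330, higher by 1.75 with cisplatin and lower by 1.66 when AU-15330 was added to it. Timp1, an inhibitor of metalloproteinases, went the other way, from 24.6 to 56.7 CPM with DMSO to 197 to 248 CPM with AU-15330 and 332 to 414 CPM with both drugs.

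With cisplatin 8 of the 10 target genes were called, against 51.7% of all genes. The 6 higher and 2 lower stand against 26.0% and 25.7% of all genes. The chemokine gene Ccl2, the least abundant of the 10, had the largest change, from a mean of 0.370 CPM with DMSO to 9.55 CPM with cisplatin (log2 fold change 4.68, SE 0.339, adjusted p = 1.39e-11). Plau, the urokinase gene, was higher by 2.11 (SE 0.144, adjusted p = 4.30e-12) and Mmp10 by 0.97 (SE 0.226, adjusted p = 0.000794), Timp1 (−0.38) and Spp1 (−0.29) were lower, and Mmp13 (−0.67) was not called. The median log2 fold change with cisplatin was 0.51 for the 10 target genes and −0.86 for the 9 AP-1 and Atf3 genes, and the lists were not tested against each other. Plau (1.35) and Spp1 (0.97), the osteopontin gene, were higher when AU-15330 was added to cisplatin. Compared with AU-15330 alone, both drugs gave 9 of the 10 targets higher and 0 lower, against 22.2% and 19.5% of all genes.

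**Figure D5:**
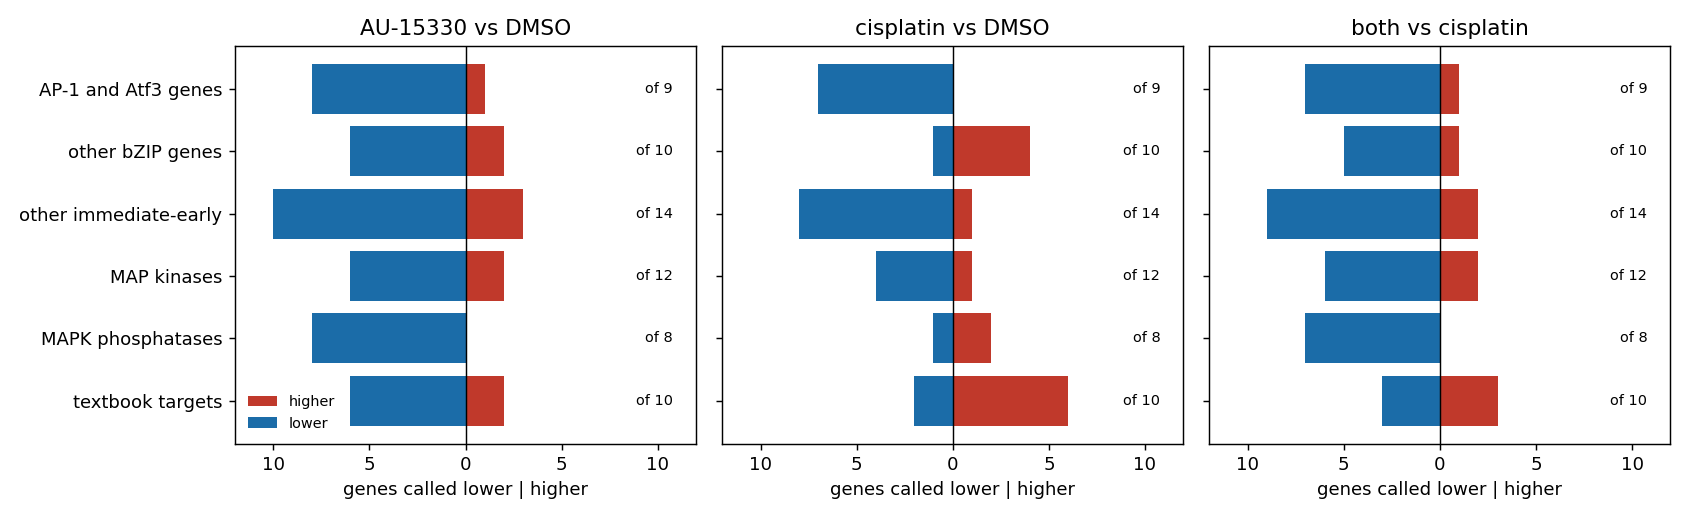
Number of genes called lower (blue, to the left) and higher (red, to the right) at an adjusted p under 0.05 in 6 gene lists and 3 comparisons; the number at the right of each row is how many genes of the list were tested. The AP-1 and Atf3 genes were mostly lower in all 3 panels, where 37.2%, 25.7% and 32.7% of all tested genes were called lower. With cisplatin 6 of the 10 textbook target genes were called higher, against 26.0% of all tested genes.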

How the data were processed

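RNA of 24 samples was sequenced by the authors as single-end reads from poly(A)-selected, directional libraries, and the submitters' processing notes name STAR 2.7.1a, DESeq2 1.36.0 and the build mm10. The counting tool, annotation and use of strand are not given in the sources used here. The deposited values are raw counts per gene symbol in 48 columns, 2 lanes for each library, which were matched by label, with 0 columns left over, and summed. Lanes of a library differed by a chi-square per degree of freedom of 1.332 to 1.434, and replicates by a median of 19.764.

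Counts were tested with edgeR 4.0.16 (R 4.3.3) by TMM scaling, filterByExpr (12941 genes kept) and the quasi-likelihood F test in 1 fit of the 4 groups with 20 residual degrees of freedom. A change was called at a Benjamini-Hochberg adjusted p under 0.05 over all tested genes, and the standard error is the log2 fold change divided by the root of F. For correlations log2 CPM used a prior count of 2. Exon lengths and overlaps came from GENCODE vM21, which is on GRCm38 as mm10 is. The tests were also run on simulated counts in which few genes changed and replicates shared no effect. That run does not cover scaling or error rates in data where most genes were called. Alternatives were other scaling and filters, DESeq2 1.42.0, the replicate number as a block, only the groups compared, and subsets of replicates.

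The 10 genes and all lists were chosen with earlier results of these data known. All 10 genes are named throughout. From each other list up to 3 genes called higher and 3 called lower with the largest change among those with a mean log2 CPM of at least 3 are named in 3 comparisons, with the 2 genes most correlated with each tested gene. Egr2, Egr3 and Ccl2, which are below that limit, were added after their values were seen. A gene that this rule names is not reported here.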

Additional observations from a re-analysis of the deposited data

Results flagged for a closer look

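In 5 of 38 groups of 6 values of the 10 genes, 1 library lay apart from the other 5 by a gap, as a share of the range of the group, beyond Dixon's 95% critical value, where chance gives 1.9. With both drugs these were replicate 3 for Fosb (share 0.648) and replicate 1 for Atf3 (0.696) and Maff (0.739). With cisplatin it was replicate 1 for Fosl1 (0.780), and with AU-15330 replicate 1 for Batf3 (0.834), which rests on 7 counts. Each was the highest library of its group.

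The effect of AU-15330 differed between cells with and without cisplatin, by the test of the interaction on the log2 scale, for Fosl1 (3.38), Atf3 (2.06), Maff (1.81), Jun (0.60), Fosl2 (0.53), Jund (0.49) and Junb (−0.39). Without the 4 libraries numbered replicate 1, 1 in each group, of which those with AU-15330, cisplatin and both drugs each lay apart for at least 1 gene, the interaction was 3.79 for Fosl1, 2.29 for Atf3 and 1.84 for Maff.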

How the results depend on the processing

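Of 801 values of the 9 tested genes under the alternatives, 761 kept their side of the threshold, 36 lost the call, 4 gained it and 0 called values changed direction, while values that were not called, such as that of Junb with both drugs, could take either sign. With replicates 1 to 3 only, cisplatin against DMSO changed 4 of the 9 genes and 4361 genes in all, both drugs against AU-15330 changed 2817 genes in all, and the interaction was called for 4 of the 9 and for 1701 genes in all. With replicates 4 to 6 only, as few libraries, 47 of 54 values of the 9 genes kept their side of the threshold, 4 lost the call and 3 gained it, against 43, 11 and 0 with replicates 1 to 3. The cause was not tested. Leaving out 1 replicate number in turn, the count of the 9 genes called was 9 in every fit for AU-15330 against DMSO, 5 to 7 for cisplatin against DMSO, 7 to 8 for both drugs against cisplatin, 6 to 7 against AU-15330, 7 to 8 against DMSO and 5 to 7 for the interaction. The corresponding counts over all genes were 8983 to 9685, 5824 to 6826, 8213 to 8958, 4501 to 5623, 8945 to 9643 and 3265 to 4627.

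Replicate numbers are shared by the groups, and 23 of 36 same-numbered pairs of libraries had deviations from their group means correlated above 0.1 (from −0.13 to 0.48). Their mean was 0.14, against −0.027 for the other pairs, so same-numbered libraries were somewhat more alike. As not all 36 exceeded 0.1, the numbers were not taken to pair the libraries over the series. By comparison of groups, 6 of 6 pairs exceeded 0.1 for AU-15330 with both drugs (0.10 to 0.48), where the numbers thus met the rule for pairing, 5 of 6 for AU-15330 with cisplatin, 4 for DMSO with cisplatin, 3 for DMSO with AU-15330 and for cisplatin with both drugs, and 2 for DMSO with both drugs. With the replicate number as a block, the calls of the 9 genes were as before (9, 7, 8, 7, 8 and 7 in the order above), and 9966, 7354, 9286, 6185, 9889 and 5303 genes were called in all. For AU-15330 against DMSO, the block changed the adjusted p of Fosb from 0.000182 to 8.99e-10 and that of Fos from 0.0103 to 0.00137. That of Junb was also smaller, and those of the other tested genes were larger.

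Depth limits Batf3, with at most 17 counts in a library, and Fosl1 with AU-15330, with at most 19. The counting of Fosl1 and Jund, which share most of their exon bases with a gene on the other strand, could not be examined by strand.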
